A study of Mus musculus with 33 samples.

Results

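Female mouse blastocysts cloned from hippocampal CA1 neurons were compared with female blastocysts made by in vitro fertilisation (IVF), by the sex and donor cell in the labels. The comparison held 7 of the 33 single-blastocyst arrays of the series: 4 female CA1 clones and 3 female IVF blastocysts. The clones carried the nucleus of an adult CA1 pyramidal cell in place of the oocyte's own and had been exposed to trichostatin A, which blocks histone deacetylases. The dose was 50 nM throughout, over 1 h of activation, a further 5 h in cytochalasin B and 2 h after that, and blastocysts were taken after 96 h in culture. The IVF blastocysts came from fertilised oocytes and are not labelled as treated. All 7 embryos were of the strain background (C57BL/6NxDBA/2)F1 and were grown in KSOM, a simple culture medium. Nuclear transfer and trichostatin A therefore cannot be told apart, and neither can the number of donor animals or sessions, which the labels do not give. The p-values below measure only the spread between samples within groups, pooled over all 33 arrays of the series. With the 7 arrays alone, far fewer genes passed the test (756, against 2096).

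In nuclear transfer, the factors of the oocyte return the chromatin of a differentiated cell to an embryonic state, and marks left on the donor genome can keep some embryonic genes silent. A female embryo also has to balance a pair of X chromosomes: the long non-coding RNA Xist coats an X chromosome and silences it, and in the early mouse embryo the paternal X is the one silenced. By the blastocyst stage the embryo has an outer trophectoderm, which builds the placenta, and an inner cell mass, which sorts into the epiblast and the primitive endoderm. A clone has to set up all of these from a neuron's genome.

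Signals were divided by the 75th percentile of their array and are given as log2, so 1 unit is a factor of 2 and a level belongs to its own probe only. The lowest value an array could hold, a shared floor, was -3.43. Of 41174 probes, 22789 passed the filter on dim signals, and they gave 15792 genes, of which 545 were X-linked besides Xist and Tsix. A gene was called at a limma adjusted p under 0.05, and changes are the clone mean minus the IVF mean. Where a probe was at the floor or not above background throughout a group, the fold is only a lower limit and is given as "at least". A group that sits on the floor adds little spread, so the adjusted p of such genes can be too low.

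The 75th percentile of the raw signal was 1029.5 to 1465.6 in the CA1 clones and 1162.2 to 1323.6 in the IVF blastocysts, and 54.5% to 61.1% and 58.2% to 60.5% of the probes were well above background. Within the groups, arrays correlated at r = 0.950 to 0.972 over the 6 clone pairs and 0.957 to 0.960 over the 3 IVF pairs, across genes. The Y-linked genes Ddx3y, Eif2s3y, Kdm5d and Uty lay on the floor in all 7 arrays, as the female labels require. The clone arrays were read with a later scanner and software than the IVF arrays, each group lay on 1 slide, and no processed signal was at or below 0 in the clones, against 19.1% to 20.2% of the spots in the IVF arrays. Array set, slide and scan day cannot be told apart from the group in any comparison of CA1 clones with IVF blastocysts or cumulus clones. The female Purkinje clones were read with the same scanner and software as the CA1 clones, but on another slide and scan day.

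The genes that separated the clones most belonged to the X-linked Magea and Xlr families. Magea genes encode melanoma-antigen proteins that are normally expressed in the testis and the early embryo, and Xlr genes, first described in lymphocytes, form clusters of near-identical copies on the X chromosome. Their upstream sequences are shown for 4 members because the families were the largest fall in the data, and with them that of Asz1, an autosomal germ line gene that was on the floor in every clone too. Each run gives the 150 bases before the annotated start, on the gene's own strand, from RefSeq on GRCm38.p6, with the dinucleotide CG, the site of DNA methylation, in capitals. The positions were chrX:155089791-155089940 (minus strand) for Magea1, chrX:154995851-154996000 (minus) for Magea8, chrX:73265391-73265540 (minus) for Xlr3c, chrX:73214183-73214332 (plus) for Xlr4b and chr6:18109062-18109211 (minus) for Asz1.
Magea1: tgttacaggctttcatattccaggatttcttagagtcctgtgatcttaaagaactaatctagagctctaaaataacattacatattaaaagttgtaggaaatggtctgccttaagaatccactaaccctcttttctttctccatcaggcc
Magea8: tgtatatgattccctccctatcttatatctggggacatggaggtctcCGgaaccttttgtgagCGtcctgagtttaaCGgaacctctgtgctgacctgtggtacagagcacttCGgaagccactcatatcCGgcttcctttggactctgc
Xlr3c: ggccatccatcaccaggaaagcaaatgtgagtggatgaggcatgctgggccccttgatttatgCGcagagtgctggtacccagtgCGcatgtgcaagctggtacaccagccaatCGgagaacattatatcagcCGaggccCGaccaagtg
Xlr4b: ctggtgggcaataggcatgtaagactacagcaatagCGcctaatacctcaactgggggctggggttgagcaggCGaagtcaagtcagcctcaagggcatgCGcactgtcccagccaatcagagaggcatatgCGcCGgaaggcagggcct
Asz1: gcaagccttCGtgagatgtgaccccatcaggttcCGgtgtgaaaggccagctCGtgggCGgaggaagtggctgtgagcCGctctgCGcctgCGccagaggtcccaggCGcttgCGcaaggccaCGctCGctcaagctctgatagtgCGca
The printed stretch held 0 CG in Magea1, 5 in Magea8, 5 in Xlr3c, 5 in Xlr4b and 12 in Asz1. CG reads the same on both strands, and it was counted in windows of 300 bases, from 250 before to 50 after the start. Of the 9 Magea and Xlr genes with a window, 5 had at most 1 CG, while 14.6% of all 27025 genes of the RefSeq table and 4.8% of the 375 X-linked genes tested with a window were that poor in CG. The median was 7 CG over the whole table, 20 over the 10572 genes tested with a window, 14 over the X-linked ones and 11 over the 70 X-linked genes that were lower in the clones. A count of CG is a feature of the letters alone, and neither methylation nor the start used in these embryos was measured here.

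Magea1 was on the floor in all 4 CA1 clones, against 2.15, 1.90 and 2.44 in the IVF blastocysts. No clone had a signal of Magea1 above the floor and every IVF blastocyst had a clear one, so the gene was at least 48.2-fold lower in the clones (adjusted p = 1.02e-08). Magea6 was likewise on the floor in the clones, against 1.69, 0.95 and 2.62 in the IVF blastocysts, at least 36.3-fold lower (adjusted p = 1.75e-10). Magea3, Magea8 and Magea5 were on the floor in every clone as well, at least 47.2-fold, 43.6-fold and 10.5-fold lower. The Magea5 probe was still well above background in every clone. The floor of these 7 arrays alone would be -5.44, below the shared floor. A value on the shared floor therefore does not mean that the RNA of a Magea gene was absent.

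Xlr3c had -1.56, -3.43, -3.38 and -3.43 in the clones, against 4.31, 2.31 and 3.65 in the IVF blastocysts. All clones lay below all IVF blastocysts, with a difference of -6.37 ± 0.96 (SE; adjusted p = 8.74e-05), the largest fall among X-linked genes called. Xlr4b had 2.71, 1.33, 0.16 and -1.63 in the clones, against 6.07, 4.39 and 5.62 in the IVF blastocysts, a difference of -4.72 ± 1.12 (adjusted p = 0.00571). Here the clones differed widely among themselves and still did not reach the lowest IVF blastocyst, and the other 2 probes of Xlr4b gave -4.58 and -4.40.

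Of 19 Magea and Xlr genes listed, 10 had a probe, 9 were measured and 8 were lower in the clones, where 4.88% of all genes tested were lower. The ninth, Xlr, had overlapping groups and a difference of -2.41 (adjusted p = 0.0503). The median difference of the 9 was -5.18, against 0.07 over all genes, and it lay between -7.27 and -4.60 over the other scalings. The calls numbered 8 to 9 when each array was left out in turn. Xlr5d, which was not on the list, had -1.72, -1.38, -3.43 and -1.95 in the clones, against 3.61, 2.89 and 4.04 in the IVF blastocysts, a difference of -5.63 ± 0.77 (adjusted p = 2.73e-05). Probes of such near-identical families can take up the signal of several members, so which member fell is uncertain.

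**Figure D1:**
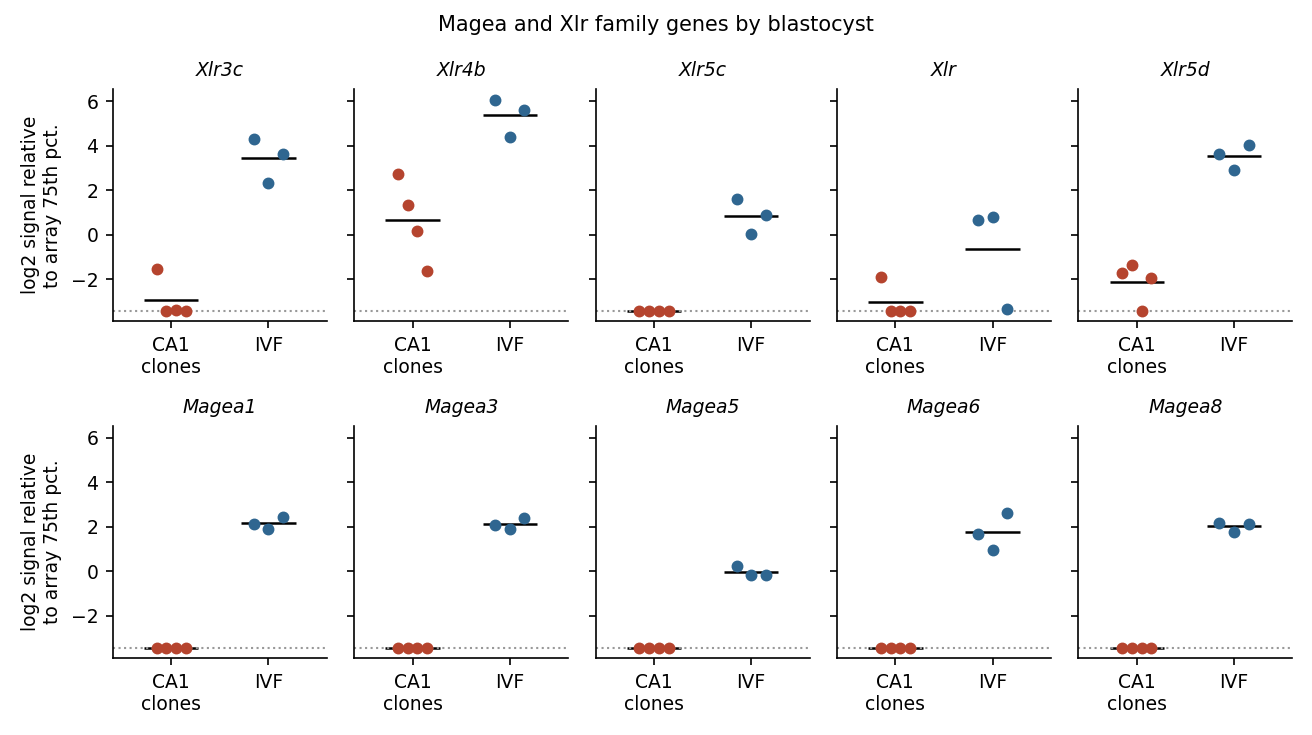
Log2 signal (relative to the array's 75th percentile, floor at -3.43) of the measured Magea and Xlr genes, Xlr5d included, with 1 point per blastocyst, female CA1 clones left of female IVF blastocysts. Bars are group means and the dotted line is the floor. The Magea genes of all 4 clones sit on the floor, while Magea1 lies between 1.90 and 2.44 in the IVF blastocysts.

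The X chromosome as a whole was lower in the clones. Of the 545 X-linked genes, 93 were lower and 13 higher, that is 17.1% and 2.39%, where 4.88% and 8.4% of all genes tested were lower and higher (13.3% called either way). The median difference was -0.39 over X-linked genes, against 0.09 over the autosomal genes, which sets the X 0.48 units below. On single autosomes the median lay between 0 and 0.21, 3.0% to 5.73% of the genes were lower and 3.53% to 12.1% higher. No autosome of the 19 came near the X chromosome in its share of lower genes.

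Within each array, the median of the X-linked genes minus that of the autosomal genes was -0.94, -1.62, -0.84 and -1.24 in the clones, against -0.11, 0.044 and -0.041 in the IVF blastocysts. The means were -1.16 ± 0.35 (SD, n = 4) in the clones and -0.035 ± 0.075 (SD, n = 3) in the IVF blastocysts. All 4 clones lay below all 3 IVF blastocysts, and the second clone had the largest deficit. Other groups of the series stood at -1.38 ± 0.28 in male CA1 clones, -0.78 ± 0.19 in female Purkinje clones, -0.82 ± 0.42 in cumulus clones and -0.15 ± 0.14 in male IVF blastocysts (SD, n = 4, 4, 3 and 7). Without replicate 2 of the clones 61 X-linked genes were lower, and normexp, a background correction that starts from the raw spot medians, left 47 lower and 3 higher.

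**Figure D2:**
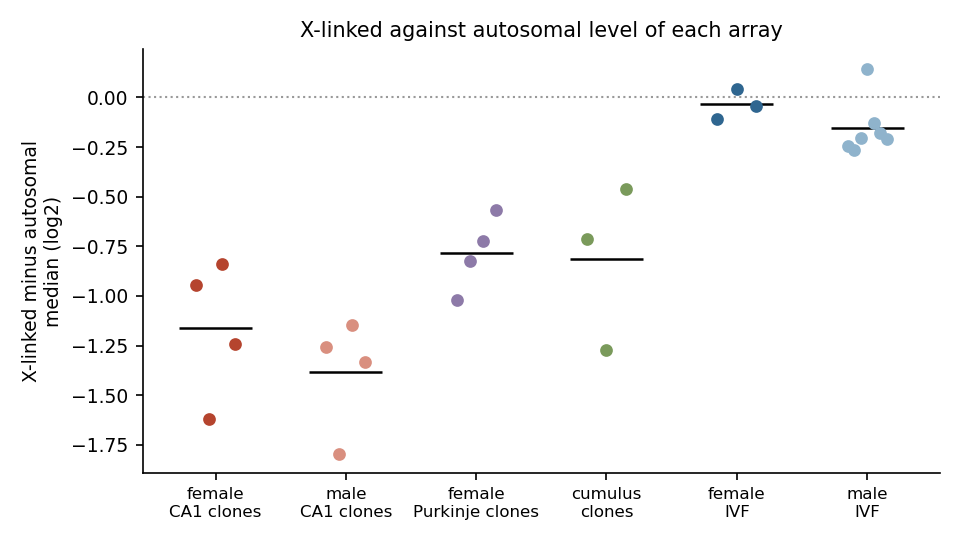
Median log2 signal of X-linked genes minus that of autosomal genes, 1 point per array, by group, with bars at the group means. The 4 female CA1 clones lie between -1.62 and -0.84, below the 3 female IVF blastocysts at -0.11 to 0.044.

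Beyond the families, the falls on the X chromosome included genes of development and metabolism. Mbnl3, a muscleblind-type splicing regulator, was -3.43, -3.43, -1.70 and -3.40 in the clones, against 0.38, 0.97 and 1.47 in the IVF blastocysts (difference -3.93 ± 0.71, adjusted p = 0.000578). Pja1, a ubiquitin ligase, was -0.17, -2.53, -0.0032 and 0.90 in the clones, against 2.41, 3.26 and 2.94 in the IVF blastocysts (difference -3.32 ± 0.70, adjusted p = 0.00227). In both genes every clone lay below every IVF blastocyst. Pgk1, the glycolytic phosphoglycerate kinase, was 2.90, 1.75, 2.78 and 3.06 in the clones, against 5.12, 5.10 and 5.63 in the IVF blastocysts (difference -2.66 ± 0.61, adjusted p = 0.00428).

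Plac1, a placental gene, was 1.34, -3.43, -3.14 and 0.76 in the clones, against 2.32, 3.70 and 3.88 in the IVF blastocysts, a difference of -4.42 ± 1.18 (adjusted p = 0.0131). Clone replicates 1 and 4 kept a clear signal and the others were at or near the floor, and the call was lost without IVF replicate 3 (adjusted p = 0.0541). Efhc2 differed by -4.68 ± 1.58 (adjusted p = 0.0475) and lost its call whichever of the 7 arrays was left out. Maged2 and Tspan6 lay on the floor in every clone, at least 5.38-fold and 6.65-fold lower, and for Tspan6 the adjusted p reached 0.228 without IVF replicate 3. Under normexp neither of these nor Efhc2 was called (adjusted p = 0.079, 0.0933 and 0.0818).

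The rises on the X chromosome were fewer and smaller. Ebp, a sterol isomerase of cholesterol synthesis, was 7.63, 7.68, 7.51 and 7.51 in the clones, against 6.04, 6.45 and 5.80 in the IVF blastocysts (difference 1.48 ± 0.23, adjusted p = 0.000122). All clones were above all IVF blastocysts and within a narrow range of each other. Alg13, of protein glycosylation, differed by 1.49 ± 0.31 (adjusted p = 0.00179). Mtm1, a phosphoinositide phosphatase, differed by 1.52 ± 0.36 (adjusted p = 0.0053), but its other 3 probes ran from -1.40 to -0.43, so the rise holds for that probe alone and turns to -0.22 as a mean over its probes. Under normexp the adjusted p was 0.074 for Ebp and 0.0851 for Alg13.

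The brightest probe of Xist read 4.71, 5.01, 5.65 and 4.89 in the clones, against 3.22, 2.02 and 2.32 in the IVF blastocysts, a difference of 2.54 ± 0.54 (adjusted p = 0.00251). Every clone was above every IVF blastocyst on this probe, yet the other 3 probes of Xist gave differences between -1.24 and 0.88, and the groups overlapped on each of them. The probe at -1.24 was lower in the clones with an adjusted p of 0.0308 over all probes. The probes disagree in direction, and their places within the transcript were not used here. Tsix, the antisense partner of Xist, was on the floor in all IVF blastocysts and at -1.38, -3.43, -3.30 and -3.43 in the clones (adjusted p = 0.585). Of 7 measured genes known to escape X inactivation, 1 was lower, Car5b, a mitochondrial carbonic anhydrase (difference -2.13, adjusted p = 0.0133, 0.0567 without IVF replicate 1), and 6 did not pass the test.

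Rhox5, an X-linked homeobox gene, read 7.54, 7.21, 6.48 and 4.93 in the clones, against 4.79, 4.68 and 4.83 in the IVF blastocysts. The clones spanned a range of levels whose lowest member sat just above the IVF blastocysts, and the difference of 1.77 ± 0.70 was not called (adjusted p = 0.0939). None of the 4 measured Rhox genes was called.

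Imprinted genes were read in 3 classes. Of 18 measured genes whose maternal copy is held silent in mouse embryos by the histone mark H3K27me3 rather than by DNA methylation, 4 were higher and 0 lower, where 8.4% of all genes tested were higher and 4.88% lower. Their median difference was 0.88, against 0.07 over all genes. Slc38a4, a neutral amino acid transporter of the placenta, read 6.10, 5.80, 5.93 and 6.09 in the clones, against 3.73, 4.15 and 4.54 in the IVF blastocysts (difference 1.84 ± 0.31, adjusted p = 0.000233). The 4 clones lay close together, and all exceeded the IVF blastocysts.

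Gramd1b, which carries cholesterol between membranes, was 2.56, 2.19, 1.85 and 2.68 in the clones, against 0.45, -0.78 and -0.068 in the IVF blastocysts (difference 2.45 ± 0.51, adjusted p = 0.00195), and its other 2 probes differed by 1.41 and 2.23. Slc38a1, a further amino acid transporter, differed by 1.33 ± 0.26 (adjusted p = 0.00114), though its other 5 probes gave -0.02 to 0.58 and its call was lost under normexp (adjusted p = 0.142). Platr20, a non-coding RNA, was on the floor in all IVF blastocysts and at least 4.13-fold higher in the clones, with an adjusted p of 0.0593 without clone replicate 2. Over the 18 genes, 7 had every clone above every IVF blastocyst, where 13.8% of all genes tested did. The median was 0.67 to 0.92 over the other scalings.

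The classical imprinted genes, which depend on DNA methylation of the parental germ line, gave 1 higher and 1 lower of 17 paternally expressed genes (median difference 0), and 1 higher and 1 lower of 17 maternally expressed genes (median 0.03, 0 after quantile normalization). Both counts stand beside 8.4% higher and 4.88% lower over all genes. Meg3, a maternally expressed non-coding RNA, was -0.82, -2.49, -3.43 and -0.57 in the clones, against 0.63, 0.90 and 0.66 in the IVF blastocysts (difference -2.56 ± 0.69, adjusted p = 0.0137). The IVF blastocysts were close together and the clones spread below them. Slc22a18, an organic cation transporter, differed by 2.63 ± 0.71 (adjusted p = 0.0139), with groups that overlapped and an adjusted p of 0.12 without IVF replicate 3.

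Among the cell lineages of the blastocyst, the primitive endoderm was read first. Of its 24 measured genes 7 were lower and 0 higher, with a median difference of -0.91, where 4.88% of all genes tested were lower and 8.4% higher. Sox7, a transcription factor of this lineage, was on the floor in all clones, against 2.16, -0.93 and 2.36 in the IVF blastocysts, at least 24.7-fold lower (adjusted p = 0.0039). Lama1, a laminin subunit that this tissue secretes, was -1.43, -1.94, -2.33 and 2.37 in the clones, against 3.70, 2.57 and 3.66 in the IVF blastocysts (difference -4.14 ± 0.98, adjusted p = 0.00571). Clone replicate 4 stood close to the IVF blastocysts and the other clones far below, and a further Lama1 probe lay on the floor in all 7 arrays.

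Foxa2, an endoderm transcription factor, was -3.43, -3.43, -3.43 and 0.06 in the clones, against 1.03, 0.60 and 1.15 in the IVF blastocysts (difference -3.48 ± 0.69, adjusted p = 0.00124), with the same clone nearest to the IVF range. Lamb1 differed by -2.07 ± 0.50 (adjusted p = 0.00602), and Cubn, an endocytic receptor, by -2.41 ± 0.72 (adjusted p = 0.0257, 0.131 without IVF replicate 3). Sox17 was 3.05, 0.45, -3.43 and 4.76 in the clones, against 3.73, 3.80 and 4.04 in the IVF blastocysts, and was not called. These 4 values run from the floor to above the IVF range. Gata6, which marks the lineage's precursors, differed by 0.57 ± 0.22 (adjusted p = 0.0807).

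The summed picture for the lineage was a mean level of 1.06 to 2.63 over its genes in the clones and of 2.51 to 3.35 in the IVF blastocysts, so the groups touched. Leaving out each array left 4 to 9 genes lower (4 without IVF replicate 3), and normexp left 6. In whole blastocysts, fewer cells of a lineage and less RNA per cell cannot be told apart.

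Trophectoderm genes moved both ways. Hand1, a transcription factor of trophoblast giant cells, was 2.26, 0.84, 2.50 and 0.60 in the clones, against -2.98, -3.43 and -3.43 in the IVF blastocysts (difference 4.83 ± 0.80, adjusted p = 0.00024). Every clone had a signal well above the floor, where the IVF blastocysts had next to none. Of 32 genes measured, Hand1 was higher and 6 were lower, where 8.4% of all genes were higher and 4.88% lower. The falls numbered 3 to 5 with an array left out (3 without clone replicate 2) and 3 under normexp. Krt7, an epithelial keratin, was 1.06, 2.97, 0.83 and 1.96 in the clones, against 3.73, 3.96 and 3.56 in the IVF blastocysts (difference -2.04 ± 0.49, adjusted p = 0.00578). Aqp8, a water channel, was 1.50, -0.32, 0.11 and 3.65 in the clones, against 4.89, 4.01 and 4.36 in the IVF blastocysts (difference -3.18 ± 0.94, adjusted p = 0.0247, 0.0856 without IVF replicate 1). Plac1, Tspan8, Krt18 and Cdh1 were the other falls. Cdx2, which specifies the trophectoderm, differed by 0.52 ± 0.34 and was not called (adjusted p = 0.343).

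The pluripotency list gave 1 call in 21 genes, a rise, where 8.4% of all genes were higher. Nr5a2, an orphan nuclear receptor that activates Pou5f1, was 5.21, 4.48, 4.65 and 4.44 in the clones, against 3.53, 3.90 and 3.35 in the IVF blastocysts (difference 1.10 ± 0.29, adjusted p = 0.0126, 0.063 without IVF replicate 3 and 0.235 under normexp). Pou5f1 was 3.47, 3.81, 4.27 and 4.14 in the clones, against 4.14, 4.69 and 4.03 in the IVF blastocysts, and Nanog was 2.09, 1.86, 3.17 and 2.57, against 1.31, 2.85 and 1.98. Both had overlapping groups and were not called (differences -0.36 ± 0.27 and 0.37 ± 0.54).

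**Figure D3:**
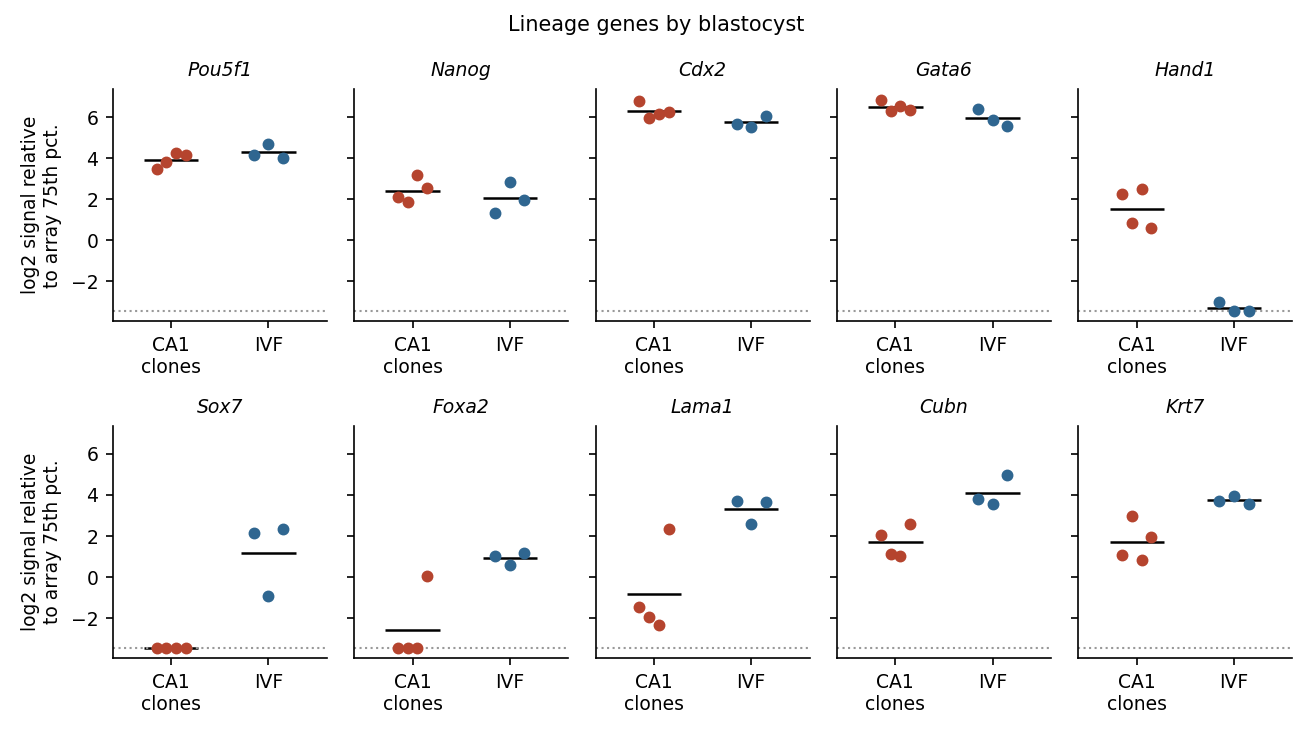
Log2 signal (relative to the array's 75th percentile) of lineage genes in each blastocyst, female CA1 clones left of female IVF blastocysts. Bars are group means and the dotted line is the floor. Hand1 lies at 0.60 to 2.50 in the clones and at or near the floor in the IVF blastocysts, while Sox7 lies on the floor in all clones.

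Signalling and adhesion genes that act in these lineages were also read, and each count stands beside 8.4% higher and 4.88% lower over all genes tested. Of 26 genes of the Nodal, BMP and Id pathway, 3 were higher and 4 lower: Lefty1, an antagonist of Nodal (-2.29), Bmp4, a ligand (-1.93), and Id1 and Id3, targets of BMP signals (-1.72 and -1.76). The receptor Acvr1b (1.14), the processing protease Furin (0.85) and the antagonist Nbl1 (1.79) were higher. Bmp4 was -2.70, -2.16, -3.40 and -0.53 in the clones, against -0.51, -0.10 and -0.20 in the IVF blastocysts, so clone replicate 4 came close to the lowest IVF blastocyst. All 4 falls were near the limit of the test (adjusted p = 0.017 to 0.0458), and normexp left none of the 7 calls. With an array left out 0 to 3 were lower (0 without IVF replicate 1) and 1 to 4 higher.

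Of 25 basement membrane and integrin genes 5 were lower and 1 higher, where 4.88% of all genes were lower and 8.4% higher, and 2 to 6 were lower with an array left out (2 without IVF replicate 1). Besides Lama1, Lamb1 and Col4a2, these were Itgb1 (-1.03) and Itgb3, integrin subunits. Itgb3 was -2.76, -2.56, -1.57 and -2.26 in the clones, against 0.60, -0.09 and -0.01 in the IVF blastocysts (difference -2.45 ± 0.69, adjusted p = 0.0188, 0.0737 without IVF replicate 1), but its other probe differed by 0.24. Of 25 amino acid transporters 3 were higher and 4 lower, and the falls included the X-linked Slc6a14 (-2.81 ± 0.75, adjusted p = 0.0131, 0.0565 without clone replicate 2) and Slc7a3 (-2.83 ± 0.89, adjusted p = 0.0339, 0.188 without IVF replicate 3). The falls among the transporters numbered 0 without IVF replicate 3 and at most 5 with another array left out. The Hippo pathway gave 3 higher of 21, Tead1, Tead2 and Wwtr1, of which none remained under normexp, and 0 to 2 were higher with an array left out. The FGF and MAP kinase list gave 2 higher and 2 lower of 27.

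Genes that write chromatin marks differed in single members. In the DNA methylation list of 19, 2 genes were lower and 0 higher, where 4.88% of all genes were lower and 8.4% higher. Dnmt3b, a de novo DNA methyltransferase, was 5.01, 4.62, 4.39 and 5.18 in the clones, against 5.79, 5.62 and 5.50 in the IVF blastocysts (difference -0.83 ± 0.24, adjusted p = 0.0229, 0.0862 without IVF replicate 1). Dnmt1, the maintenance methyltransferase, was 2.43, 1.96, 1.30 and 2.02 in the clones, against 1.58, 2.27 and 1.91 in the IVF blastocysts, and the groups overlapped (difference 0.0082 ± 0.38, adjusted p = 1).

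Among 19 genes of H3K9 methylation, Setdb1, a methyltransferase, was 0.32, 0.44, 0.22 and 0.83 in the clones, against 1.57, 1.92 and 1.61 in the IVF blastocysts (difference -1.25 ± 0.27, adjusted p = 0.00281). Wiz, a partner of the G9a and GLP methyltransferases, was 3.65, 2.82, 2.77 and 2.72 in the clones, against 1.68, 1.46 and 1.96 in the IVF blastocysts (difference 1.29 ± 0.27, adjusted p = 0.00185). The 2 groups were apart in both genes. Ehmt1, which encodes GLP, differed by 1.28 ± 0.39 (adjusted p = 0.029, 0.159 without IVF replicate 2), and Kdm1a, a demethylase, by 0.73 ± 0.25 (adjusted p = 0.0479, 0.273 without IVF replicate 3). Bmi1 was higher (1.26 ± 0.29, adjusted p = 0.00461) and Eed lower (-0.93 ± 0.26, adjusted p = 0.0167, 0.0978 without IVF replicate 1) among 30 Polycomb subunits. The sirtuin Sirt3 was the call among 15 histone deacetylases, a rise of 1.09. It lost its call in 6 of the fits with an array left out (adjusted p = 0.126 without IVF replicate 2). The H3K9 list gave 3 higher and 1 lower of 19. Each of these counts stands beside 8.4% higher and 4.88% lower over all genes tested. Of the chromatin genes named, Setdb1 kept its call under normexp (adjusted p = 0.00552), while the other members did not (Dnmt3b 0.055, Wiz 0.166, Ehmt1 0.212, Kdm1a 0.334, Bmi1 0.211, Eed 0.128 and Sirt3 0.225).

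Asz1, a germ line gene whose promoter is printed above, encodes a protein that serves the piRNA pathway in testis. Asz1 was on the floor in all 4 clones, against 0.23, 0.96 and 0.58 in the IVF blastocysts, at least 16.2-fold lower (adjusted p = 1.75e-10). None of the clones had a signal of it above the floor. Sohlh2, a germ cell transcription factor, was -2.48, -2.90, -2.94 and -1.33 in the clones, against 1.09, 1.16 and 1.24 in the IVF blastocysts (difference -3.58 ± 0.68, adjusted p = 0.000932). The germ line list, of 29 measured genes, gave 1 higher and 1 lower, where 8.4% of all genes were higher and 4.88% lower. Asz1 and Sohlh2 are therefore not both members of it. The rise was Fkbp6 (1.34). The median of the list was 0.36, against 0.07 over all genes, so these falls do not stand for the list. None of the 9 measured genes of the 2-cell stage was called.

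Stress and metabolic lists were read next. Of 25 genes of the integrated stress and unfolded protein responses, 5 were lower and 1 higher, with a median difference of -0.62, where 4.88% of all genes were lower and 8.4% higher. Xbp1, the transcription factor of the unfolded protein response, was -1.25, -0.25, -0.01 and -0.22 in the clones, against 1.06, 1.18 and 1.81 in the IVF blastocysts (difference -1.78 ± 0.27, adjusted p = 9e-05). All clones lay below all IVF blastocysts. The chaperone Hsp90b1 (-1.09), the transcription factor Atf4 (-0.96), Herpud1 of protein degradation at the endoplasmic reticulum (-1.99) and Slc7a3 were the other falls, and Cebpb (1.51) the rise. Normexp gave 2 falls, and 2 to 5 were lower with an array left out (2 without IVF replicate 1).

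Of 78 mitochondrial ribosomal proteins, 17 were higher and 2 lower, with a median difference of 0.45, where 8.4% of all genes were higher and 4.88% lower. Mrpl22 was 4.11, 3.79, 3.90 and 3.74 in the clones, against 2.22, 2.72 and 2.31 in the IVF blastocysts (difference 1.47 ± 0.22, adjusted p = 8.82e-05). Mrpl27 differed by 1.18 ± 0.23 (adjusted p = 0.0013) and Mrpl49 by 1.09 ± 0.20 (adjusted p = 0.000706). In 27 of the 78 genes every clone was above every IVF blastocyst, where 13.8% of all genes tested were. The count depended on the scaling: the median was 0.10 after quantile normalization, 1 gene remained higher under normexp, and 6 to 20 were higher with an array left out (6 without IVF replicate 1). The list was bright, with a mean level of 3.49 to 3.96 in the clones and 3.22 to 3.42 in the IVF blastocysts. In the brightest of 4 equal sets of all genes by mean level, 679 of 3948 were higher, 117 lower and the median was 0.34. Against IVF blastocysts of the same sex, the list's median was 0.30 in male CA1 clones, 0.59 in female Purkinje clones and -0.37 in cumulus clones.

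The next counts stand beside 8.4% higher and 4.88% lower over all genes. The respiratory chain gave 6 higher and 2 lower of 81 (median 0.25, -0.02 after quantile normalization), cytosolic ribosomal proteins 1 higher and 2 lower of 84 (median 0.02, -0.20 under normexp), and the proteasome 1 higher and 5 lower of 38 (median 0.09, -0.23 after quantile normalization). Of the respiratory chain genes, 7.4% were higher, and quantile normalization gave 2 higher and 6 lower. Of these genes 0 were higher without IVF replicate 1. The proteasome falls numbered 1 to 6 with an array left out (1 without IVF replicate 1). Of 34 genes of cholesterol and fatty acid synthesis 5 were higher and 0 lower, where 8.4% of all genes were higher, and 3 to 9 were higher with an array left out (3 without IVF replicate 1). Hmgcs1, which makes the precursor of mevalonate, was 7.03, 7.45, 6.34 and 7.25 in the clones, against 5.23, 6.37 and 5.60 in the IVF blastocysts (difference 1.28 ± 0.28, adjusted p = 0.0033), while its other 2 probes differed by -0.04 and 0.14. Srebf2, the transcription factor of the pathway, differed by 1.28 ± 0.31 (adjusted p = 0.00611, 0.0514 without IVF replicate 1), and Ebp and Tm7sf2 were also higher. None of the 5 was called under normexp. Glycolysis gave 3 higher and 2 lower of 25, and 0 higher after quantile normalization.

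**Figure D4:**
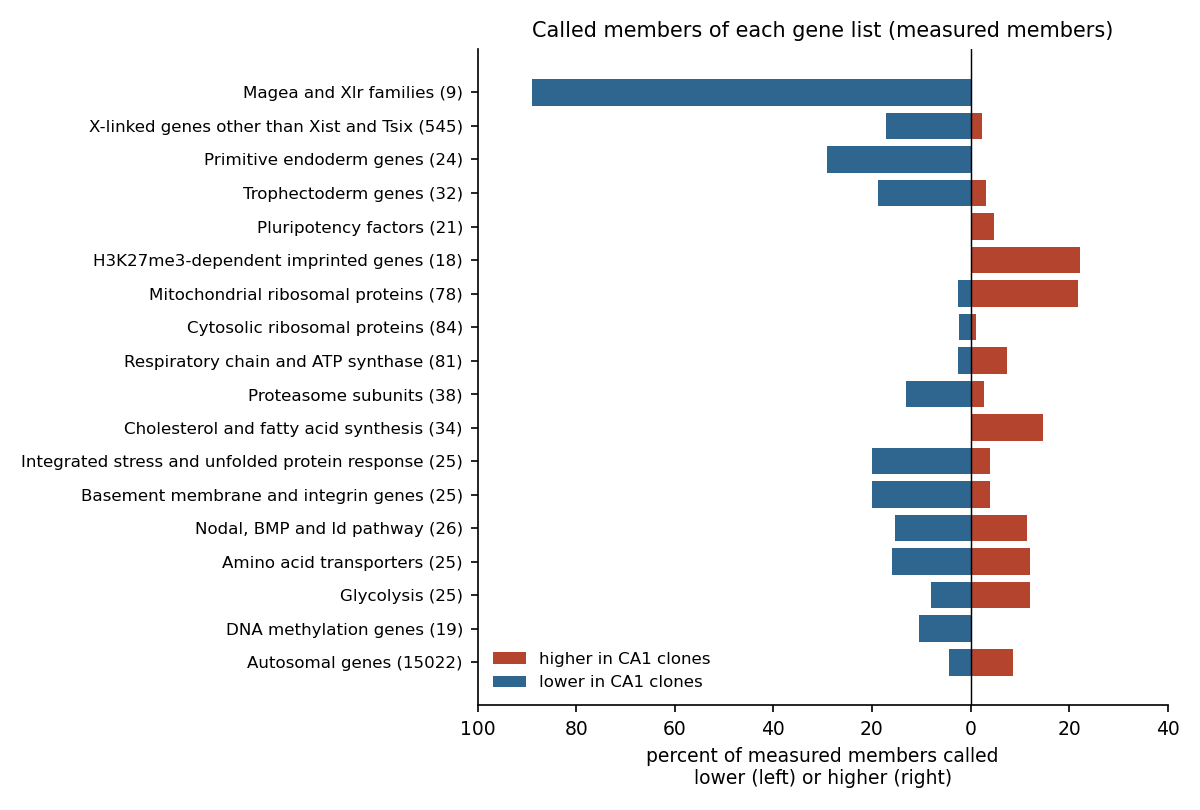
Percent of the measured genes of each list (their number in brackets) called lower (left) or higher (right) in female CA1 clones than in female IVF blastocysts. The Magea and Xlr families have 8 of 9 lower, and the H3K27me3-dependent imprinted genes hold rises and no fall.

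Markers of the donor cell and of other cells were checked. Among 28 pan-neuronal genes 17 were measured, and the rest, Snap25, Syt1, Rbfox3 and Dcx among them, did not pass the filter on dim signals. The mean level of the list was -1.91 to -1.76 in the clones and -1.58 to -1.08 in the IVF blastocysts. The 2 genes called were lower in the clones, Nefl, a neurofilament (-4.18 ± 1.07, adjusted p = 0.0103), and Rtn1, a reticulon (-3.44 ± 0.75, adjusted p = 0.00281). Of 10 measured genes of CA1 pyramidal cells, Wfs1, which also acts in the endoplasmic reticulum of other cells, was higher: 3.93, 4.35, 4.11 and 3.78 in the clones, against 2.70, 2.72 and 2.15 in the IVF blastocysts (difference 1.52 ± 0.28, adjusted p = 0.000598, 0.0511 under normexp). Amhr2 was the rise among 6 measured genes of cumulus and granulosa cells (2.27 ± 0.54, adjusted p = 0.00558, 0.0623 without IVF replicate 3), and none of 7 oocyte genes was called.

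Across all genes, 2096 of 15792 were called, 1326 higher and 770 lower, and 4290 had an unadjusted p under 0.05. Every clone was above every IVF blastocyst in 13.8% of all genes tested and below in 7.61%. In 1813 of the called genes the groups did not overlap, and 1438 changed more than 2-fold. Rises were many and small, falls fewer and larger: among the 286 genes that changed more than 4-fold, 118 were higher and 168 lower. The split of calls followed the signal. With the genes divided by mean level into 4 sets of equal size, dim to bright, 26.6%, 39.5%, 64.5% and 85.3% of the calls were rises. Rises made up 63.3% of the calls here, 42.3% after quantile normalization (754 of 1783), and 50.8% with scaling by the array median (793 of 1562). Under the quantile normalization the median of all genes was 0, against 0.07 here, and it was 0.23 under normexp and in the authors' deposited table.

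**Figure D5:**
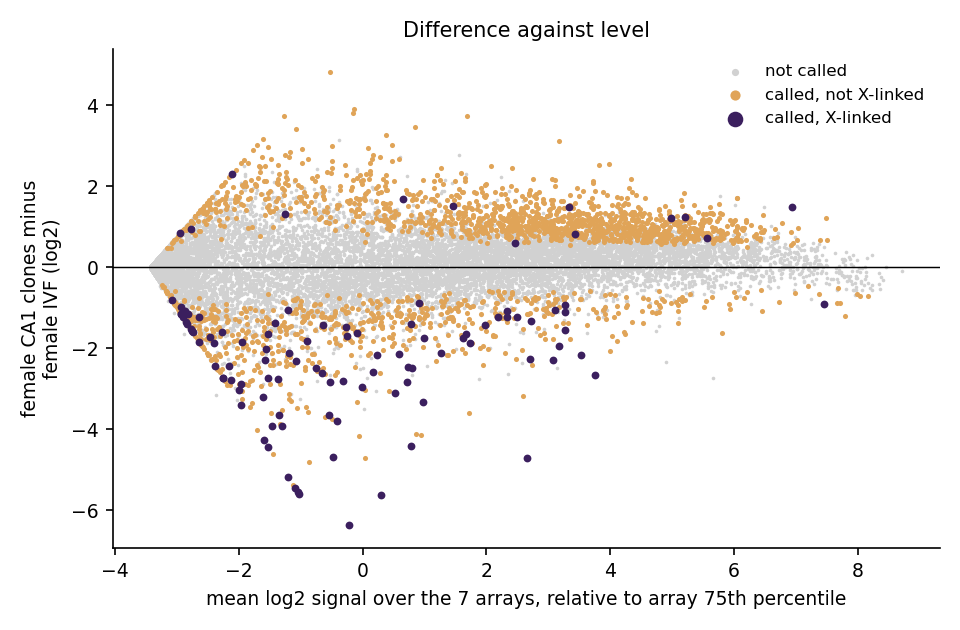
Difference of female CA1 clones minus female IVF blastocysts (log2) against the mean level (log2, relative to the array's 75th percentile), 1 point per gene, with called genes coloured and the X-linked ones among them dark. In the dimmest of 4 equal sets of genes 26.6% of the calls are rises, and in the brightest 85.3%.

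The largest rises with probes well above background in both groups were Cd68, Dubr and Mgst2. Cd68, a lysosomal protein of macrophages and other phagocytes, was 1.79, 0.93, 1.97 and 1.46 in the clones, against -1.41, -2.28 and -3.43 in the IVF blastocysts (difference 3.91 ± 0.59, adjusted p = 8.74e-05). Mgst2, a microsomal glutathione transferase, was 4.21, 3.39, 3.34 and 2.19 in the clones, against 0.86, -1.59 and -0.64 in the IVF blastocysts (difference 3.74 ± 0.63, adjusted p = 0.000288). In each of these every clone was above every IVF blastocyst. Dubr, a non-coding RNA, differed by 3.80 ± 0.55, but its other 2 probes gave -0.33 and 1.56. Further rises were Klhdc9 (3.47 ± 0.65), Mlxipl, a glucose-responsive transcription factor (3.41 ± 0.62), Anxa8, a calcium-dependent membrane binder (3.11 ± 0.54), the host RNA Snhg11 (3.03 ± 0.45) and the neuronal kinesin Kif5a (2.78 ± 0.68).

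Among the largest falls, Dpf1, a subunit of neuronal chromatin-remodelling complexes, was on the floor in all clones, against 2.48, 1.89 and 1.45 in the IVF blastocysts, at least 41.4-fold lower (adjusted p = 7.2e-06). Its probe was still well above background in every clone, so the floor value does not mean that the RNA was absent. Bend5 was -0.66, -3.43, -3.43 and -0.40 in the clones, against 3.75, 1.66 and 2.77 in the IVF blastocysts (difference -4.71 ± 1.00, adjusted p = 0.00238). Emb, an immunoglobulin-type adhesion protein, was 0.99, -3.43, -0.33 and -0.84 in the clones, against 3.73, 2.79 and 3.12 in the IVF blastocysts (difference -4.12 ± 0.86, adjusted p = 0.00201). F2r, a thrombin receptor, differed by -3.60 ± 1.21 (adjusted p = 0.0493), a value from 2 IVF arrays, since the spot of replicate 1 was left out as an outlier, and the adjusted p was 0.345 without IVF replicate 3. Junb, an immediate early transcription factor, was 0.80, 0.44, 0.57 and 0.47 in the clones, against 2.95, 2.29 and 2.66 in the IVF blastocysts (difference -2.07 ± 0.40, adjusted p = 0.000946), while its other probe differed by -0.34.

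Whether the effect of CA1 cloning differed by sex was tested as an interaction, the female difference minus that of 4 male CA1 clones and 7 male IVF blastocysts. It was called for 170 genes (1.08%), 77 with a positive (0.488%) and 93 with a negative (0.589%) interaction. Of these, 1 and 6 were among the 545 X-linked genes tested. Rhox5 averaged 6.54 in female clones and 4.77 in female IVF blastocysts, against 7.10 in male clones and 1.00 in male IVF blastocysts. The clones of both sexes were near each other, the IVF blastocysts far apart, and the interaction was -4.33 ± 0.91 (adjusted p = 0.0123). Dpf1 likewise averaged 1.94 in female IVF blastocysts and -2.14 in male ones, with clones of both sexes on the floor (interaction -4.08 ± 0.87, adjusted p = 0.0151). Ash1l, a histone methyltransferase, averaged 0.70 in female clones and -1.57 in female IVF blastocysts, against -0.76 in male clones and -0.36 in male IVF blastocysts (interaction 2.67 ± 0.54, adjusted p = 0.00994). Normexp gave no interaction call.

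For the families above, the male difference in the same order was -4.42 for Magea1, -5.49 for Xlr3c and -3.39 for Asz1, and the sex interaction was called for none of these 3 genes. Hand1 differed by 3.91 in males and Xist, on its brightest probe, by 4.83. The median of the Magea and Xlr list was -4.34 in males.

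The female CA1 clones were also set against the other female clones. Against 4 female Purkinje clones, 1740 genes were called (11%), 763 higher (4.83%) and 977 lower (6.19%). Of these, 14 and 39 were among the 545 X-linked genes tested. Atp8a1, a phospholipid flippase, averaged 1.61 in the CA1 clones and -2.06 in the Purkinje clones (difference 3.67 ± 0.76, adjusted p = 0.00263), and Sulf1, an extracellular sulphatase, -2.95 in the CA1 clones and 0.85 in the Purkinje clones (difference -3.81 ± 0.72, adjusted p = 0.00128). The Purkinje arrays were dimmer, with a 75th percentile of 353.8 to 838.0, and scaling by the array median turned the split into 2902 higher and 248 lower. Without replicate 4 of the CA1 clones 1099 were called, and without Purkinje replicate 3 or 4, 935 and 890. The part of depth in this contrast was not tested.

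Against 3 cumulus clones, 3049 genes were called (19.3%), 2191 higher (13.9%) and 858 lower (5.43%). Of these, 51 and 33 were among the 545 X-linked genes tested. Hand1 averaged 1.55 in the CA1 clones and -2.14 in the cumulus clones (difference 3.69 ± 0.80, adjusted p = 0.00236), and Bfsp2, a lens filament protein, 0.95 and -2.92 (difference 3.87 ± 0.87, adjusted p = 0.00301). Pdk2, a pyruvate dehydrogenase kinase, averaged -3.34 in the CA1 clones and 2.61 in the cumulus clones (difference -5.94 ± 1.18, adjusted p = 0.00109). The cumulus arrays belong to the same array set as the IVF arrays, so this contrast carries the same unseparated difference of scanner and software. Without replicate 1 of the CA1 clones 1796 genes were called, and without cumulus replicate 2, 1789.

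Each of these groups shares the female IVF blastocysts as its control, so the differences are given side by side only. Magea1 was at -5.59 in CA1 clones, -5.59 in Purkinje clones and -4.97 in cumulus clones against the IVF blastocysts, Xlr3c at -6.37, -6.85 and -5.65, and Asz1 at -4.02, -4.02 and -3.68. The families were thus low in the clones of all 3 donor cells, the cumulus clones of the earlier array set included. Hand1 was at 4.83, 3.79 and 1.14, and Slc38a4 at 1.84, 1.51 and 2.04. Sox7 was at -4.63, -4.38 and -1.98, and Lama1 at -4.14, -5.08 and -1.82. These genes fell less in the cumulus clones, but the median of the 24 primitive endoderm genes did not. It was -0.91, -1.46 and -1.08 in the same order.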

How the data were processed

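RNA of single blastocysts was amplified in a pair of linear rounds, labelled with Cy3 and hybridised to Agilent arrays, per the labels' protocols. The deposited scanner files hold spot intensity on a linear scale, already background-corrected by the authors' software: Agilent Feature Extraction 10.5.1.1 on 20 arrays and 9.5.3.1 on 13, per the file headers, and 10.5.1 per the submitters' processing notes. The IVF and cumulus arrays come from an earlier study of the same laboratory, per the labels' design text. The authors' deposited value table holds log2 values, with column medians of -0.59 to 0.77 (its direction and 75th percentile scaling matched the scanner values, with a median absolute difference of 0.00514 in females after centring per probe on the 14 female arrays), and served as an alternative.

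For each array, processed signals of non-control, non-outlier spots were averaged per probe, divided by the array's 75th percentile, floored at 0.0929 and log2-transformed. The floor was the highest, over 33 arrays, of the 1st percentile of signals well above background, and 19.9% of all values were at it. A probe had to be well above background on more than 50% of a group's arrays, to exceed the floor on 3 arrays or more and to have at least 2 values in each group. The brightest probe stood for a gene. Of 41174 probes, 23082 were named by accession, 6582 by symbol and 3073 by synonym through the RefSeq gene table, and 8437 kept the file's name. The number of arrays, not counting error, limits the precision.

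Group means were fitted to all 33 arrays with lmFit and eBayes of limma 3.58.1 (R 4.3.3), with Benjamini-Hochberg adjustment over 15792 genes. The code was tested on simulated data. The residual degrees of freedom were 25. Every adjusted p-value is limma's, computed here from the deposited intensities; the authors' files give none that was used. For "at least N-fold", the model's group difference, on values held at the shared floor, was turned into a fold. Replicate numbers did not pair the samples (correlations of same-numbered deviations -0.11 to 0.016 over 3 pairs).

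Named genes were the 12 largest rises and 12 largest falls called with non-overlapping groups and well above background in both, the 6 largest bounds each way, up to 4 called members of each list, 9 genes of X inactivation, DNA methylation and lineage whatever their values, the 8 largest falls and 4 largest rises on the X chromosome, and the 6 largest differences each way of the 3 further contrasts. Other list members and Xlr5d and Sox17 were added after their values were seen. The members and the gene lists were chosen with earlier results of these data known. Alternatives were other scalings, background correction, filters, floors, sample sets, probe rules, variance models and blocks. Promoter sequences are RefSeq's on GRCm38.p6, and probe positions were not used.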

Additional observations from a re-analysis of the deposited data

Results flagged for a closer look

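Single clones stood apart from the other 3 in 5 of 124 genes of the named genes and lists with no value on the floor by Dixon's 95% criterion, and chance flags about 1 in 20 groups. Dubr was 0.046 in clone replicate 4, against 1.82 to 2.06 in the other clones, and Anxa8 was 3.09 in the same clone, against 4.91 to 5.14. Clone replicate 1 was the high one for Wiz (3.65, against 2.72 to 2.82), Tead1 (6.44, against 5.78 to 5.85) and Rps27, a ribosomal protein (7.57, against 6.36 to 6.56).

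Of 40 list means, 2 had such a clone. The mean of the Rhox family was 2.12 in clone replicate 1, against -0.64 to -0.54 in the others. The mean of the immediate early genes was -0.29 in clone replicate 3, against -0.015 to 0.036 in the others.

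The effect of CA1 cloning differed between the sexes, by limma's interaction term, in 13 of the named genes. Of these 13, 12 were named as the 6 largest interactions in each direction, so this count follows from the choice of genes. The female difference minus the male difference was positive for Akap5 (3.92, adjusted p = 0.0491), Ash1l (2.67), Gpr152 (2.49), Nprl3 (2.33, adjusted p = 0.0207), Pcif1, an RNA cap methyltransferase (2.24, adjusted p = 0.00298), Armh3 (2.21) and Ehmt1 (2.04, adjusted p = 0.0423). It was negative for Tmem35a (-5.72, adjusted p = 0.0344), Rhox5 (-4.33), Dpf1 (-4.08), Lrrc66 (-3.75, adjusted p = 0.0169), Zfp41 (-3.32) and Cpm (-3.15). Lrrc66 was on the floor in all female arrays of both groups, so its value rests on male CA1 clones at 0.32 and male IVF blastocysts on the floor.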

How the results depend on the processing

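The X-linked minus autosomal median kept its direction under every alternative run, between -0.72 and -0.42. The 2096 genes called fell to 624 with normexp background correction (352 higher, 272 lower) and to 756 with only the 7 arrays in the fit, and were 1326 to 2127 with an array left out, lowest without replicate 1 of the CA1 clones. In the fit of 7 arrays, 601 of the 2096 genes kept their call in the same direction, so most lost it. Lama1 (limma adjusted p = 0.119), Foxa2 (0.106), Meg3 (0.119), Hmgcs1 (0.114), Krt7 (0.0968), Xlr4b (0.0709) and Xbp1 (0.0534) were among the genes that lost their calls. Magea1 (0.000102), Xlr3c (0.0158), Slc38a4 (0.0163), Hand1 (0.0174) and Xist (0.0255) were among those that kept them. The 170 sex interactions were 0 with normexp, where 1351 genes had an unadjusted p under 0.05, 112 in the authors' table, and 96 to 222 with an array left out (96 without male CA1 replicate 4, 108 without female IVF replicate 1). The 1740 genes against Purkinje clones were 3150 with array median scaling, 521 with normexp, 626 with only the groups compared and 890 to 2381 with an array left out. The 3049 against cumulus clones were 862 with normexp, 1862 with only the groups compared and 1789 to 3337 with an array left out. A replicate block gave 2206, 132, 1728 and 3133 calls in these 4 comparisons, and the slide as a random block 1706, 119, 1298 and 2603. Of 137 named genes called against IVF, 64 kept their call with every array left out in turn, and 133 kept their direction in all 22 alternatives. The other 4 turned as the mean over the probes of a gene in place of the brightest probe: Nras to -0.084, Prdx6 to -0.31, Ndufv3 to -0.050 and Mtm1 to -0.22. The cause of these changes was not tested. Normexp, the fit without the 8 Purkinje arrays and the filter on both groups were chosen after seeing the data, and normexp on spot means was not run, since the clone files give spot medians only. Signal near background limits the dim genes: 97 calls are bounds from dim clones and 42 from dim IVF blastocysts.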

Other observations

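Further gene lists stand beside 8.4% higher and 4.88% lower over all genes tested. Of 29 p53 response genes 1 was higher, of 33 chaperones 1 was higher and 1 lower, of 35 antioxidant enzymes 3 were higher and 1 lower, of 21 lipid droplet genes 2 were higher and 1 lower, and of 43 cell cycle and DNA replication genes 4 were higher and 2 lower. These counts moved with the processing. After quantile normalization the chaperones had 1 higher and 7 lower, and the cell cycle and DNA replication genes 1 higher and 6 lower. With an array left out, 2 to 8 of the cell cycle and DNA replication genes were higher (2 without IVF replicate 1). Dnajb4, a co-chaperone, differed by 2.18. Among the immediate early genes Junb was the call of 18.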
